A study of Homo sapiens with 6 samples.

Results

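The genes of the translation initiation factors were followed in HCT116, a human colorectal carcinoma cell line, by RNA-seq of 3 libraries from a 16 h auxin treatment and of 3 DMSO control libraries. They were chosen by name: every protein-coding gene of GENCODE release 29 whose symbol starts with EIF and a digit from 1 to 6 was a member. This gave 56 members among 19969 protein-coding genes and 58780 genes in all, with 612 annotated transcripts. Auxin, a plant hormone, is used in human cells to destroy a degron-tagged protein on demand, and DMSO is a common solvent control. The labels give no allele, no tagged protein, no clone and no source for the cells beyond the line, and they record the treatment in the field for genotype. Libraries are labelled as separate biological replicates of each group, and nothing further says which cultures they came from, so that p-values measure the spread between these libraries.

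Initiation factors bring the small ribosomal subunit, the initiator tRNA and the mRNA together and then let the large subunit join. eIF2 carries the initiator tRNA and is recharged with GTP by eIF2B, and kinases that phosphorylate eIF2 alpha turn eIF2 into an inhibitor of eIF2B. The cap of the mRNA is bound by eIF4E, held by the scaffold eIF4G together with the RNA helicase eIF4A, and eIF3 bridges eIF4G to the ribosome. The eIF4E-binding proteins compete with eIF4G for eIF4E. eIF5 acts on the start codon decision, eIF5B on subunit joining, eIF5A on elongation, and eIF6 keeps the large subunit apart until it is mature.

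The libraries held between 234035000 and 625893000 expected counts, and replicate 1 was the deepest in both groups. EIF genes took 1.35% to 1.41% of the counts in DMSO and 1.47% to 1.53% after auxin. Of 8 epithelial and intestinal markers 6 were tested: EPCAM, CDH1, KRT8, KRT18, KRT19 and CDX2. All 6 were higher after auxin (log2 fold changes 0.29 to 0.56). The list summed to between 2729 and 3089 CPM, a count scaled to the size of its library, in DMSO and between 3689 and 3977 CPM after auxin. The intestinal markers CDX1 and VIL1 were too low to test, CDX1 at 0 counts in all 6 libraries and VIL1 at 5 to 27 counts. The 8 markers of other cell types summed to between 61.2 and 68.0 CPM in DMSO and between 19.3 and 24.0 CPM after auxin, nearly all of it CD68, a lysosomal protein abundant in macrophages. Without CD68 the remaining 7 summed to between 3.31 and 5.39 CPM and between 1.66 and 3.62 CPM. Most of this was COL1A1, at a mean of 3.84 CPM and then 1.91 CPM, which did not pass the test (adjusted p 0.070). Of the 5 tested, CD68 was lower, 3 did not pass and PDGFRB was higher. PDGFRB went from 0.14 to 0.29 CPM (log2 fold change 1.00, adjusted p 0.0131). CD3E was at 0 in the DMSO libraries. RNA was measured in bulk, so that fewer cells and less RNA per cell cannot be told apart.

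Of the 56 members, 54 passed the filter on low counts, and EIF1AY and EIF4E1B did not. After auxin 22 members were higher and 15 lower at an adjusted p under 0.05, and 17 did not pass the test. Over all 19725 genes tested the background was 25.4% higher and 26.9% lower, against 40.7% and 27.8% of the members. Over the 14154 protein-coding genes tested, the class that members were drawn from, it was 27.8% higher and 33.4% lower. The median log2 fold change was 0.18 over the members, 0.02 over all genes and -0.01 over protein-coding genes. In 38 of the 54 members the CPM ranges of the groups lay apart, against 60.3% of all genes and 9642 of the 14154 protein-coding genes. With the replicate number as a block 31 members were higher and 18 lower, against 35.5% and 34.4% of all genes. The changes were unequal in size: 4 members fell by at least 2-fold, against a background of 13.3%, and none rose by that much, against 6.55%, while the largest rise, in EIF5, was 1.90-fold. Of the 14154 protein-coding genes 2271 were called and at least 2-fold lower, and 680 were called and at least 2-fold higher.

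How many members passed the test, above all as rises, rested on the scaling and on the fit. Upper-quartile factors, which moved the median of all genes by 0.12 on the log2 scale, gave 31 members higher and 12 lower. Library size alone moved it by -0.09 and gave 19 higher and 17 lower. A different fit, limma-trend on log2(TPM + 1) in place of edgeR on counts, moved the median by -0.14 and gave 1 higher and 10 lower. With log2(TPM + 0.1), at a shift of -0.15, it also gave 1 and 10. Model and scale both differ in the fits on TPM, and which of them lowered the number of rises was not tested. The added constant shrinks the fold changes of low genes on both scales. Of the 22 rises, EIF4EBP1 was called under all 5 other settings of scaling or fit, which were these 4 and DESeq2. Of the 15 falls, 9 were: EIF1AD, EIF2AK3, EIF2B2, EIF2B5, EIF2D, EIF3C, EIF3G, EIF3I and EIF6. Every member called kept its sign under the 5 settings except EIF3F, at 0.28 with the main factors and -0.01 on the log2(TPM + 1) scale. The number of rises was 13 without auxin replicate 2, 14 without auxin replicate 3 and 14 without DMSO replicate 2. Calls on named members that depended on 1 library were those of EIF1, EIF3E, EIF4B and EIF4G1. The adjusted p of EIF3E was 0.095 without auxin replicate 2, 0.10 without auxin replicate 3, and 0.076, 0.054 and 0.053 when DMSO replicate 1, 2 or 3 was left out.

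**Figure D1:**
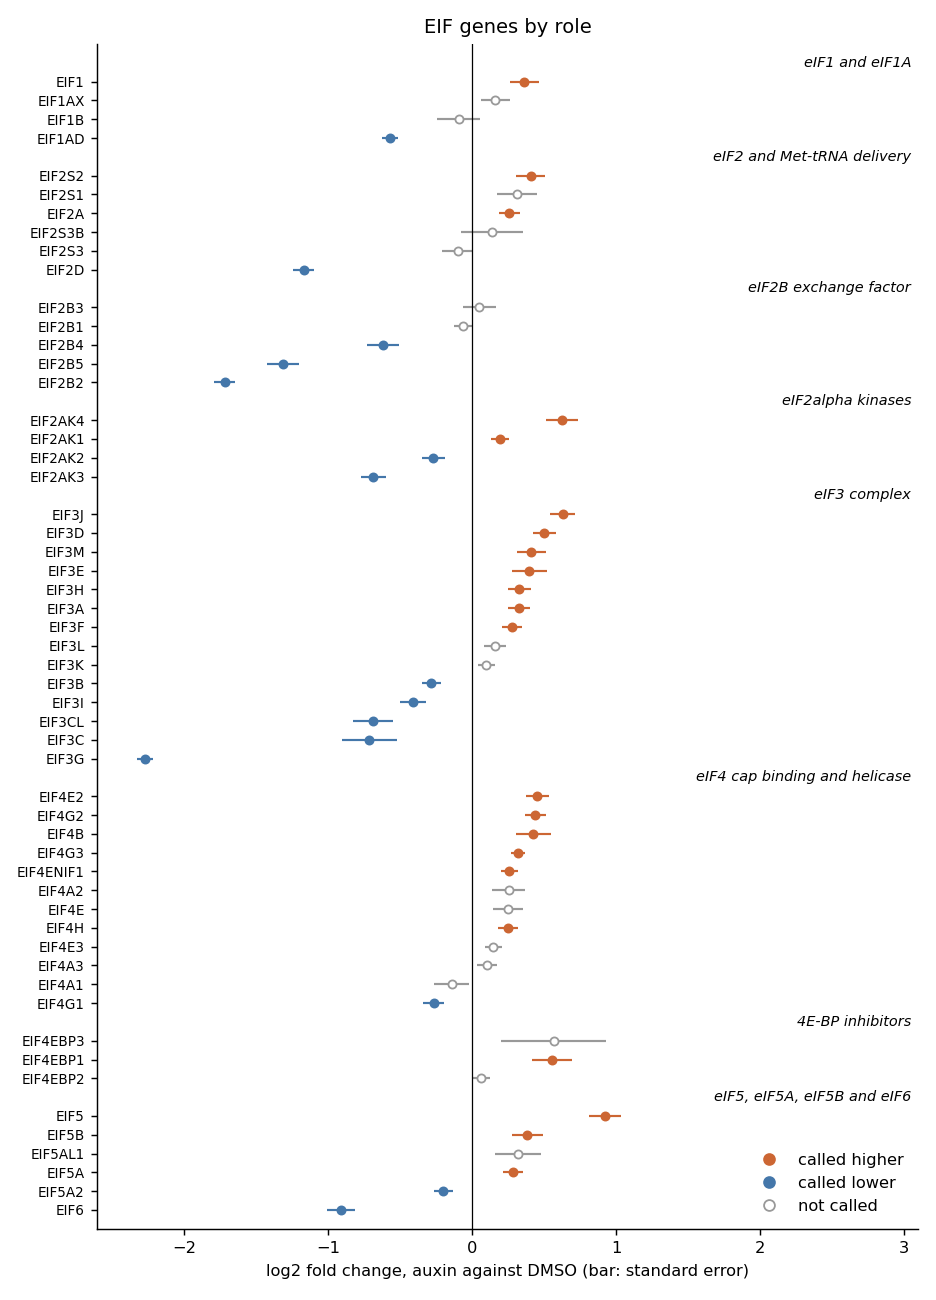
Log2 fold change of the 54 tested EIF genes after auxin, grouped by role on the y axis, with the standard error as a bar. EIF3G, EIF2B2, EIF2B5 and EIF2D lie furthest to the left, and EIF5 lies furthest to the right at 0.93.

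The eIF3 complex is the largest factor, and its members were split. Of 14 tested members 7 were higher, 5 were lower and 2 did not pass, with a median log2 fold change of 0.22. EIF3G (ENSG00000130811.11, GRCh38 chromosome 19, 10115017 to 10119918, minus strand), the RNA-binding subunit that associates with EIF3I, stood at 72.7, 72.7 and 77.7 CPM in the DMSO libraries and at 15.5, 15.4 and 15.2 CPM after auxin. The lowest DMSO library was over 4 times the highest auxin library. The log2 fold change of EIF3G was -2.27, with an SE of 0.06 and an edgeR adjusted p of 1.54e-06, and over the alternatives the adjusted p was at most 0.00103. It shares 356 bases with P2RY11 on the opposite strand.

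EIF3I, the WD-repeat subunit next to EIF3G, was at 231, 256 and 269 CPM in DMSO and at 173, 190.4 and 207 CPM after auxin. The groups did not overlap, and the log2 fold change was -0.41 (SE 0.09, adjusted p 0.00746). EIF3B, the scaffold that holds both, was at -0.28 (adjusted p 0.0102). EIF3C and EIF3CL, near-identical copies between which reads may be split, were at -0.71 and -0.69 on the log2 scale (adjusted p 0.0169 and 0.00499). Their sum does not depend on that split and went from 493, 542 and 572 CPM in DMSO to 298, 337 and 352 CPM after auxin (log2 ratio -0.70). No auxin library reached the lowest DMSO library, and the two-sided exact permutation p was 0.1, the smallest that 3 against 3 can give.

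Other eIF3 subunits rose. EIF3J, a loosely bound subunit that sits near the mRNA channel, was at 93.7, 97.3 and 108 CPM in DMSO and 140.0, 161 and 162 CPM after auxin. The groups lay apart by more than the spread within either, at a log2 fold change of 0.63 (standard error 0.08, adjusted p 0.000708). EIF3D, a cap-binding subunit, was at 269.6, 297 and 305 CPM and then at 378, 418 and 440.2 CPM (log2 fold change 0.50, adjusted p 0.00179). EIF3M (0.41, adjusted p 0.0111) and EIF3E (0.40, adjusted p 0.029) came next among the PCI-domain subunits. EIF3A, EIF3H and EIF3F had log2 fold changes between 0.28 and 0.33. EIF3K and EIF3L did not pass the test at 0.10 and 0.16, and both passed it with the replicate number as a block (adjusted p 0.013 and 0.00116). All of the rises in eIF3 lost their call in the fits on TPM, where the adjusted p of EIF3J was 0.088 and that of EIF3D 0.14 with log2(TPM + 1).

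The eIF2B exchange factor has 5 subunits, of which 3 fell, 2 did not pass and 0 rose in edgeR (0 also at an unadjusted p under 0.05, and 0 in DESeq2). The falls were 60.0% of this small list, against 33.4% of protein-coding genes, of which 27.8% rose. EIF2B2, the beta subunit of the regulatory core, went from 31.0, 31.5 and 34.7 CPM in DMSO to 9.86, 9.50 and 10.2 CPM after auxin. This was the second largest fall among the members, at -1.72 (SE 0.07, adjusted p 4.81e-06). EIF2B5, the catalytic epsilon subunit, was at 30.6, 29.7 and 32.1 CPM and then at 14.5, 11.2 and 11.5 CPM (log2 fold change -1.31, SE 0.11, adjusted p 7.62e-05). EIF2B4, the delta subunit, was at 33.1, 29.2 and 31.0 CPM and then at 23.0, 17.4 and 20.3 CPM. Its groups did not overlap either, and its log2 fold change was -0.62 (SE 0.11, adjusted p 0.00263 and 0.098 with log2(TPM + 1)). The alpha subunit EIF2B1 was at -0.06 (adjusted p 0.484) and the gamma subunit EIF2B3 at 0.05 (adjusted p 0.728), both with overlapping groups.

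Among the genes for eIF2 and for other carriers of the initiator tRNA, 2 of 6 tested were higher, 1 was lower and 3 did not pass. This was 33.3% higher and 16.7% lower, against 27.8% and 33.4% of protein-coding genes. EIF2D, a factor that can deliver tRNA to the ribosome without GTP, fell from 35.6, 32.7 and 33.4 CPM in DMSO to 16.2, 14.6 and 14.5 CPM after auxin (log2 fold change -1.17, SE 0.07, adjusted p 2.24e-05). It overlaps RASSF5 by 18157 bases on the opposite strand. EIF2S2, the beta subunit of eIF2, was at 125, 138 and 149.9 CPM and then at 162, 190.1 and 195 CPM (log2 fold change 0.41, SE 0.10, adjusted p 0.0105 and 0.24 with log2(TPM + 1)). The alpha subunit EIF2S1 was at 0.31 (adjusted p 0.0932, with the block 6.38e-05) and the gamma subunit EIF2S3 at -0.10 (adjusted p 0.479, with the block 0.0135).

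All 4 kinases of eIF2 alpha passed the test, 2 in each direction. It was also passed by 52.3% of all genes and 61.2% of protein-coding genes. EIF2AK4, known as GCN2 and activated by uncharged tRNA, was at 172, 196 and 208 CPM in DMSO and 255, 315 and 318 CPM after auxin. The lowest auxin library was above the highest DMSO library, and the log2 fold change was 0.63 (SE 0.11, adjusted p 0.00271 and 0.083 with log2(TPM + 1)). EIF2AK3, known as PERK and activated by stress of the endoplasmic reticulum, moved the other way, from 39.3, 45.0 and 45.3 CPM to 24.6, 27.7 and 28.3 CPM (log2 fold change -0.68, SE 0.08, adjusted p 0.000456). EIF2AK1, the haem-regulated kinase, was at 0.20 (adjusted p 0.0302) and EIF2AK2, the kinase activated by double-stranded RNA, at -0.27 (adjusted p 0.0265). In edgeR the EIF2AK1 call was lost with library size alone (0.16) and without the filter on low counts (0.11). The EIF2AK2 call was lost under upper-quartile factors (0.082).

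The genes for cap binding and the helicase moved little in level. Of 12 tested members 6 were higher, EIF4G1 was lower and 5 did not pass. EIF4A1 (ENSG00000161960.14, chromosome 17, 7572706 to 7579005, plus strand), the main helicase, was at 766, 948 and 988 CPM in DMSO and 721, 859.9 and 869 CPM after auxin. The groups overlapped, at a log2 fold change of -0.14 (standard error 0.12, adjusted p 0.362). Within each replicate number the auxin library was the lower, and with the block the adjusted p was 0.0045. EIF4G1 (ENSG00000114867.20, chromosome 3, 184314495 to 184335358, plus strand), the main scaffold, was at 617, 533 and 593 CPM and then at 489, 471 and 491 CPM (log2 fold change -0.26, SE 0.07, adjusted p 0.0191). This call was lost without auxin replicate 2 (0.074), auxin replicate 3 (0.056), DMSO replicate 1 (0.072) or DMSO replicate 3 (0.076), and under upper-quartile factors (0.14).

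EIF4G2, an eIF4G relative that does not bind eIF4E, was the member with the highest CPM of those named, at 1530, 1585 and 1689 CPM in DMSO and 2071, 2210 and 2236 CPM after auxin (log2 fold change 0.44, SE 0.07, adjusted p 0.00179). EIF4E2, a cap-binding relative of eIF4E linked to repression, was at 57.3, 62.3 and 66.9 CPM and then at 79.3, 85.5 and 90.8 CPM (log2 fold change 0.45, SE 0.08, adjusted p 0.00231). EIF4B, a helicase cofactor, was at 599, 773 and 741 CPM and then at 829, 1011 and 996 CPM (log2 fold change 0.42, SE 0.12, adjusted p 0.0225; 0.078 without auxin replicate 2, 0.078 without auxin replicate 3 and 0.051 without DMSO replicate 1). In each of these 3 genes no auxin library fell to the level of a DMSO library. EIF4E itself was at 0.25 (adjusted p 0.0848, with the block 0.000522), and the helicases EIF4A2 and EIF4A3 were at 0.25 and 0.10 (adjusted p 0.104 and 0.262, with the block 0.00154 and 0.0107).

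EIF4EBP1, the best known of the eIF4E-binding inhibitors, was at 45.6, 61.1 and 57.9 CPM in DMSO and 67.8, 84.4 and 89.2 CPM after auxin. The auxin libraries were all above the DMSO libraries, at a log2 fold change of 0.55 (standard error 0.14, adjusted p 0.0129). EIF4EBP2 was at 0.06 (adjusted p 0.413). EIF4EBP3 was near the detection limit, at no more than 28.99 counts in any library. Its posterior SD reached 37.8% of the count, and it overlaps ANKHD1-EIF4EBP3 on the same strand.

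The late-acting factors held both the largest rise and a fall of 1.88-fold. EIF5 (ENSG00000100664.10, chromosome 14, 103333544 to 103345025), the GTPase activator of eIF2, was at 297, 333 and 352 CPM in DMSO and 533, 659 and 674 CPM after auxin. The gap between the groups was wider than the range within either, at a log2 fold change of 0.93 (standard error 0.11, adjusted p 0.000411 and 0.096 with log2(TPM + 1)). EIF6, the anti-association factor of the large subunit, was at 93.1, 75.4 and 82.8 CPM and then at 48.9, 41.3 and 43.5 CPM (log2 fold change -0.91, SE 0.10, adjusted p 0.000229). EIF5B was at 0.39 and EIF5A at 0.29 (adjusted p 0.0217 and 0.0102), and EIF5A2, the scarcer paralog of EIF5A, at -0.20 (adjusted p 0.0399). The sum of EIF5A and its near-copy EIF5AL1 came to 463 ± 22 CPM with DMSO and 566 ± 31 CPM with auxin (SD over 3 libraries each; exact permutation p 0.1). Of the start codon factors, EIF1 was at 396, 444 and 484 CPM and then at 509, 594 and 599 CPM (log2 fold change 0.36, adjusted p 0.0194), a call lost without auxin replicate 2 (0.070), auxin replicate 3 (0.072), DMSO replicate 1 (0.059) or DMSO replicate 2 (0.069). EIF1AD, which carries an eIF1A-like domain, was at 92.8, 97.5 and 98.0 CPM and then at 63.6, 63.2 and 67.5 CPM (log2 fold change -0.57, SE 0.05, adjusted p 0.000132).

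**Figure D2:**
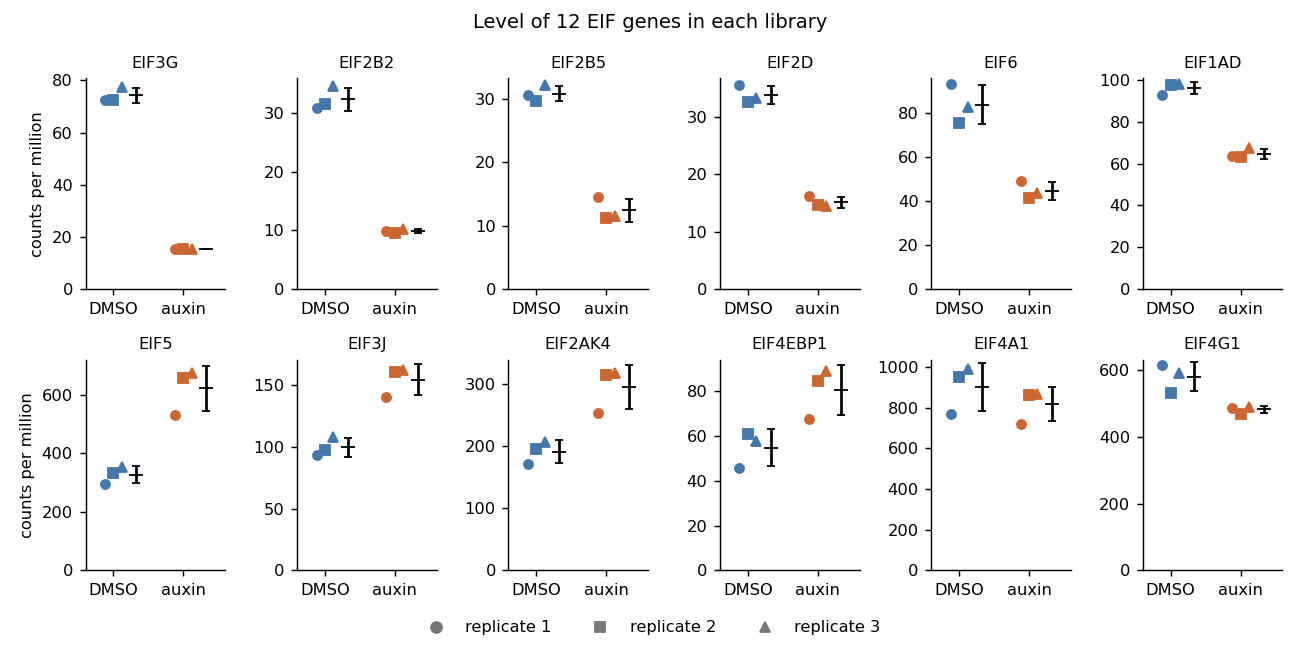
CPM of 12 EIF genes on the y axis, from 0, in each library, with a marker shape for each replicate number and the mean and SD beside the points. EIF3G fell from between 72.7 and 77.7 CPM to between 15.2 and 15.5 CPM, while EIF4A1 overlapped between the groups.

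Summed over all 56 members, EIF genes took 0.891% ± 0.126 of all TPM with DMSO and 0.943% ± 0.052 with auxin (SD over 3 libraries each), and the two-sided exact permutation p was 0.6. The balance of paralogs was compared in 6 pairs with the same test, which cannot go below 0.1, or below 0.2 after adjustment over the pairs. EIF4A1 took 85.1% ± 2.1 of the TPM of EIF4A1 and EIF4A2 in DMSO and 83.3% ± 1.8 after auxin (SD over 3 libraries each, exact p 0.4). On CPM the share was 77.9%, 77.1% and 82.0% with DMSO and 72.0%, 73.9% and 76.3% with auxin. The groups then no longer overlapped, with a difference of -4.94 points (exact p 0.1) against -1.85 points on TPM. EIF4EBP1 took 76.0% ± 2.8 of the TPM of EIF4EBP1 and EIF4EBP2 and then 81.7% ± 2.1 (SD over 3 libraries each, exact p 0.1, adjusted 0.2), with no overlap of the groups. EIF1 against EIF1B and EIF5A against EIF5A2 also did not overlap, at 2.34 and 0.676 percentage points higher (exact p 0.1 each, adjusted 0.2). EIF4G1 against EIF4G3 differed by -3.13 points on TPM (exact p 0.2), with overlapping groups. The labels do not say that libraries of the same replicate number belong together. Taken as pairs by numbers 1, 2 and 3, they differed by -3.11, -2.88 and -3.39 points, all of the same sign. The exact sign-flip p was 0.25, the smallest that 3 pairs can give. On CPM the EIF4G1 share was 84.9% to 86.6% with DMSO and 80.1% to 80.8% with auxin, without overlap (difference -5.60, exact p 0.1). EIF4E against EIF4E2 differed by 0.105 points on TPM (exact p 0.9), less than the spread within the groups, and by -3.18 points on CPM, where the groups did not overlap (exact p 0.1). The paired test and the CPM shares by library were added after the data were seen.

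Transcript use within each gene was examined apart from its level. Use was tested as the log2 odds of a transcript's expected count against the rest of its gene, with limma. Of 155 EIF transcripts tested in 45 genes, 17 rose in share and 14 fell, against backgrounds of 8.04% and 5.49% of 47732 transcripts. The 31 in all were 20.0% of those tested, against 13.5%. These 31 lay in 13 genes, with 5 each in EIF2B4 and EIF2B5 and 4 in EIF4A1. A rise in the share of a transcript lowers the share left to the rest of its gene, so the 31 are not independent. The count was 20 without DMSO replicate 2, 20 without DMSO replicate 3 and 52 when transcripts down to a share of 1% were tested. At the level of single transcripts 57 of 464 were higher and 37 lower in edgeR, against backgrounds of 8.43% and 11.2% of 83072. Shares of transcripts with many common exons come from the authors' model, and the posterior SD of the count is given beside them as a percentage of the gene's count.

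EIF4G1 exchanged one coding transcript for another. EIF4G1-202, with 33 exons, held 22.5%, 28.8% and 30.4% of the gene in the DMSO libraries and 0.350%, 0.530% and 0.580% after auxin. EIF4G1-203, with 29 exons, held 0.170%, 0.430% and 0.750% and then 18.7%, 28.0% and 30.4%. The groups lay far apart in both, with changes in log2 odds of -6.36 (SE 0.14, adjusted p 9.06e-05) and 6.88 (SE 0.43, adjusted p 0.000582). The posterior SD was at most 0.829% of the gene's count for the former and 0.977% for the latter. The short fragment EIF4G1-223, with 4 exons, whose first exon overlaps that of both, rose from 0.577% ± 0.283 to 8.79% ± 2.64 (SD over 3 libraries each, adjusted p 0.000823).

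The annotated difference lies at the 5′ end. EIF4G1-203 lacks exons 2 to 5 of EIF4G1-202, of 57, 94, 87 and 177 bases, and its coding sequence has 4305 bases against 4797, which is 164 codons fewer at the amino end. EIF4G1-221, whose annotated coding sequence is also shorter, did not change beyond its spread, at 25.3% ± 6.3 and 23.8% ± 5.8 (SD over 3 libraries each, adjusted p 0.759). EIF4G1-219 was at 7.16% ± 2.90 and 2.64% ± 2.74 (adjusted p 0.274). EIF4G1-229, a fragment of 4 exons, ranged from 0.350% to 37.1% in DMSO and from 0.720% to 33.8% after auxin. The TPM of the whole gene was variable too, at 167 ± 78 and 136 ± 42 (SD over 3 libraries each). Whether the fragment accounts for that spread was not tested.

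An inclusion level of each exon was computed as the TPM of transcripts with exactly that exon over the same plus the TPM of transcripts that splice across it. This measure was added after the data were seen and carries no test. The EIF4G1 exon at chromosome 3, 184315489 to 184315545, in the 5′ untranslated region, was at 85.5%, 87.2% and 85.9% in DMSO and 6.81%, 6.73% and 7.25% after auxin. The next exon, at 184315763 to 184315856, which holds the start codon of EIF4G1-202, went from 94.3% ± 1.3 to 12.3% ± 1.0 (SD over 3 libraries each). The coding exon at 184316132 to 184316218 went from 94.0% ± 1.3 to 12.7% ± 1.2, and that at 184317321 to 184317497 from 83.1% ± 3.2 to 17.8% ± 4.2. A coding exon further on, at 184319689 to 184319801, where the annotated start of EIF4G1-203 lies, was at 98.8% ± 0.4 and 84.1% ± 2.6. So 4 neighbouring exons went from mostly included to mostly skipped under the model, in all 3 auxin libraries.

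The exon of 87 bases is shown as an example of those lost, since it is wholly coding and in frame. It is exon 4 of EIF4G1-202, with 29 codons and a GC content of 64.4%, between introns of 275 and 1102 bases. Capitals mark the exon and lower case the 15 bases to either side in the spliced transcript, 5′ to 3′, from GENCODE release 29 on GRCh38.
EIF4G1-202 exon 4: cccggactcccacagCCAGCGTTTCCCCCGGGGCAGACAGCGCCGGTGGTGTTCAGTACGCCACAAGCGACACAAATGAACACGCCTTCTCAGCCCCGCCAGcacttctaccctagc

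EIF4A1 changed in transcript make-up without a called change in level. EIF4A1-201, the full-length coding transcript with 11 exons, held 49.3%, 48.0% and 47.9% of the gene in DMSO and 28.8%, 25.4% and 24.2% after auxin (change in log2 odds -1.64, SE 0.11, adjusted p 0.00067). EIF4A1-225, with 10 exons, was almost absent in DMSO at 0.260%, 0.180% and 0.200% and stood at 12.5%, 11.0% and 11.2% after auxin (6.22, SE 0.16, adjusted p 9.06e-05). In TPM this was 1.75 ± 0.47 against 86.6 ± 6.4 (SD over 3 libraries each), and the posterior SD did not exceed 0.218% of the gene's count. The fragment EIF4A1-229 rose from 19.4% ± 5.2 to 36.1% ± 3.2 (adjusted p 0.0214), a call lost without auxin replicate 2 (0.078), auxin replicate 3 (0.074) or DMSO replicate 3 (0.0504). EIF4A1-216, annotated as a target of nonsense-mediated decay, fell from 6.34% ± 1.87 to 1.15% ± 0.42 (SD over 3 libraries each, adjusted p 0.0109). EIF4A1-203 was at 13.8% ± 3.0 and 17.3% ± 2.8 (adjusted p 0.181, with the block 0.026). Small nucleolar RNAs lie inside EIF4A1 on the same strand.

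EIF4A1-225 lacks the penultimate exon of EIF4A1-201, at chromosome 17, 7578165 to 7578244. Its 80 bases are not a multiple of 3, so the frame changes in the last exon, where 27 bases are annotated as coding against 142 in EIF4A1-201, and the whole coding sequence has 1023 bases against 1218. Inclusion of this exon was 99.5%, 99.6% and 99.6% in DMSO and 69.7%, 69.8% and 68.2% after auxin, a value that rests on these 2 transcripts. The exon is shown in capitals with the 15 bases to either side, and under it the junction found in EIF4A1-225, with the last exon's bases in capitals.
EIF4A1-201 exon 10: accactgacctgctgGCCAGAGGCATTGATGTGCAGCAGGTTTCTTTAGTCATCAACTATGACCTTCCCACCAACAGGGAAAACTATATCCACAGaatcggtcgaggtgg
EIF4A1-225 junction: accactgacctgctgAATCGGTCGAGGTGG

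EIF3K, whose level did not pass the test, changed in make-up. EIF3K-201, with 8 exons, held 50.5%, 60.0% and 61.8% in DMSO and 28.9%, 35.6% and 31.0% after auxin (change in log2 odds -1.64, SE 0.19, adjusted p 0.00326). EIF3K-211, with 7 exons, held 17.8%, 19.0% and 20.9% and then 42.8%, 46.9% and 42.8% (1.79, SE 0.11, adjusted p 0.000504). EIF3K-201 was the larger in every DMSO library and EIF3K-211 in every auxin library. The transcripts differ by the exon at chromosome 19, 38632601 to 38632678, plus strand, of 78 bases, and by transcript ends. The coding sequences have 654 and 576 bases, so that skipping removes 26 codons and keeps the frame. Inclusion was 75.4%, 75.9% and 75.5% in DMSO and 45.5%, 46.9% and 46.7% after auxin.
EIF3K-201 exon 6: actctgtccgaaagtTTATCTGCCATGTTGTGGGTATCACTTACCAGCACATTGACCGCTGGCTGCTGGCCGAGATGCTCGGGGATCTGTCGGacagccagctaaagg
EIF3K-211 junction: actctgtccgaaagtACAGCCAGCTAAAGG

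EIF3G, the member that fell most, changed in make-up as well. EIF3G-201, with 11 exons, held 94.4%, 95.6% and 96.0% of the gene in DMSO and 78.4%, 79.8% and 81.4% after auxin (adjusted p 0.00139), and in TPM it went from 79.9 ± 15.8 to 13.2 ± 1.6 (SD over 3 libraries each). The edgeR diffSpliceDGE test, which sets a transcript against the mean change of its gene, did not call it (adjusted p 1). EIF3G-202, a truncated entry with 8 exons, held 0.0800%, 0.340% and 0.350% and then 6.02%, 12.1% and 10.5% (change in log2 odds 5.57, SE 0.65, adjusted p 0.00335), with a posterior SD of up to 0.497% of the gene's count.

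**Figure D3:**
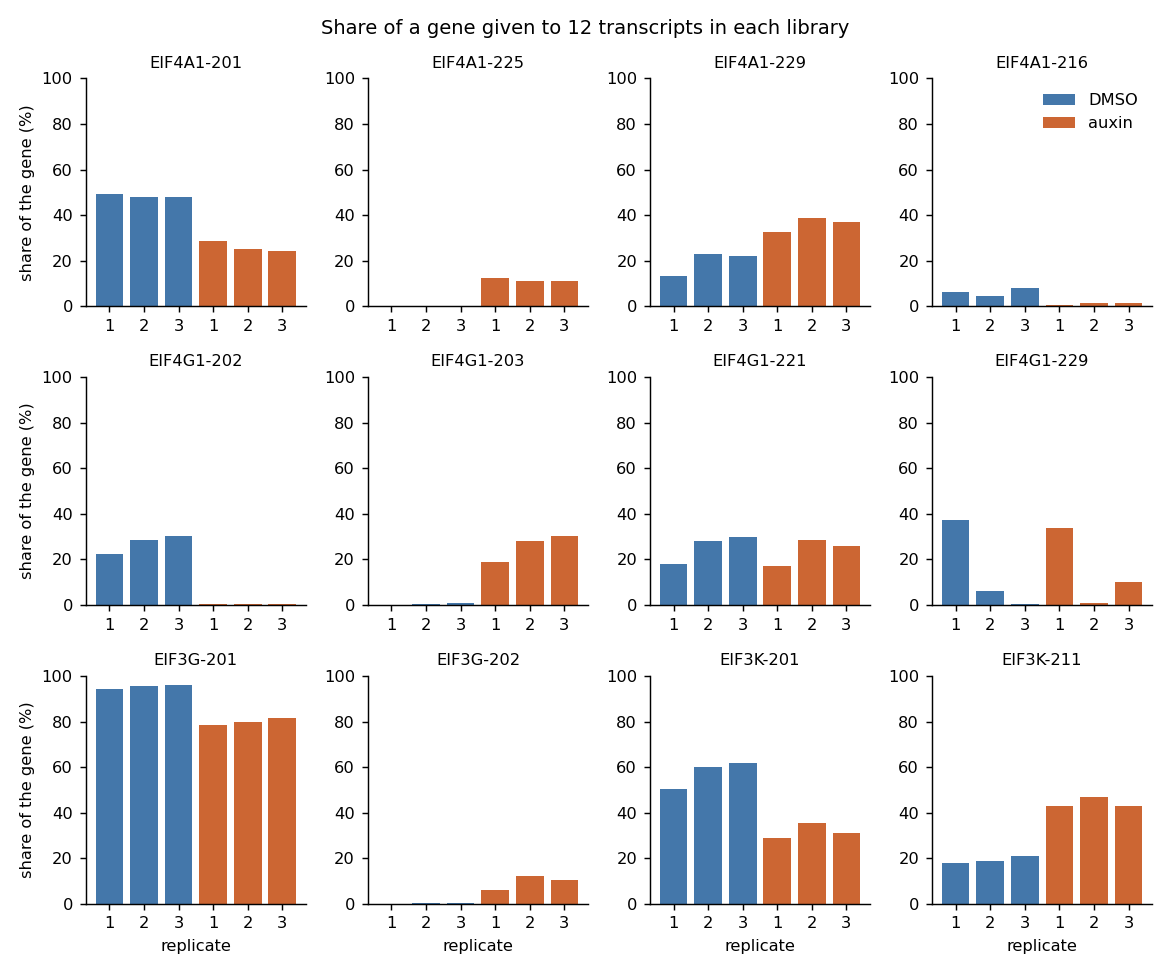
Share of the gene's expression in percent, on the y axis, given to 12 transcripts in each library, with bars coloured by group and numbered by replicate. EIF4G1-202 and EIF4G1-203 exchange places between the groups, EIF4A1-225 reaches 11.0% to 12.5% after auxin, and EIF4G1-229 varies between replicates of both groups.

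Among the other members, the transcripts with the largest called share changes were in EIF2B5, EIF3K, EIF6 and EIF2B4. EIF2B5-227, a coding transcript with 16 exons, held 77.7%, 81.2% and 85.0% in DMSO and 19.5%, 42.6% and 41.2% after auxin (adjusted p 0.0183), a call lost without DMSO replicate 2 (0.072) or DMSO replicate 3 (0.074) and with diffSpliceDGE (0.13). In EIF2B4 the retained-intron entry EIF2B4-209 rose from 2.77% ± 1.82 to 17.5% ± 6.4 (SD over 3 libraries each, adjusted p 0.0185) while coding EIF2B4-205 fell from 37.1% ± 1.6 to 22.8% ± 3.9 (adjusted p 0.0288). The EIF2B4-209 call was lost without auxin replicate 1 (0.056), auxin replicate 2 (0.061), DMSO replicate 2 (0.056) or DMSO replicate 3 (0.073), and the EIF2B4-205 call without auxin replicate 3 (0.074) or any DMSO library (0.065 to 0.11). EIF6-203 fell from 29.8% ± 2.7 to 12.8% ± 1.5 (adjusted p 0.00376). Over all members, 6 of 17 retained-intron entries tested rose in share and 1 fell, against 22.5% and 1.83% of the 6510 such entries in all genes. The one that fell was EIF5-210, named after its values were seen, from 12.3%, 12.4% and 11.0% to 1.80%, 1.29% and 0.850% (adjusted p 0.00445), in the gene with the largest rise.

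Inclusion could be computed for 184 exons of 40 EIF genes. It fell by at least 10 points with no overlap of the groups in 17 exons and rose by as much in 0, against 3.22% and 1.13% of 25216 exons in all genes. The 17 exons lie in 6 genes, 7 of them in EIF4G1 and 5 in EIF4A1, and several share ends or transcripts, so they are not independent. Among those not described above, an exon of 209 bases in EIF5 was at 47.8% ± 3.4 and 15.4% ± 1.3, and an exon of 86 bases in EIF6 at 73.7% ± 16.2 and 49.4% ± 9.3 (SD over 3 libraries each). For the EIF6 exon the lowest DMSO library, at 55.6%, and the highest auxin library, at 55.5%, almost met.

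**Figure D4:**
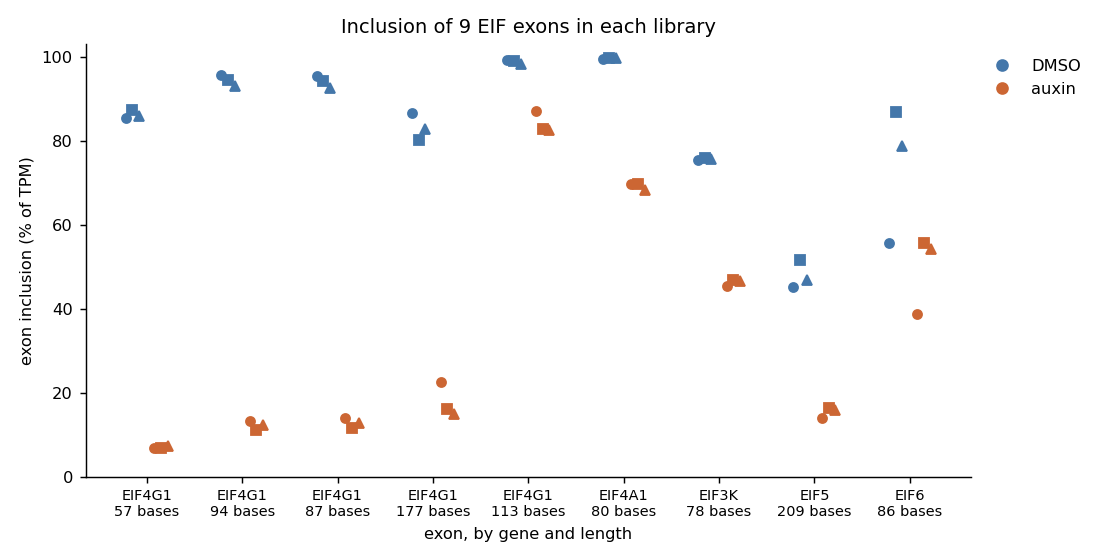
Inclusion in percent of TPM, on the y axis, of 9 EIF exons in each library, with the exons named by gene and length and marker shapes for replicate numbers. The exons of 57, 94 and 87 bases of EIF4G1 move from 85.5% or more in DMSO to 13.9% or less after auxin, and the EIF3K exon from about 75.6% to 46.4%.

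Members that fell had shorter introns and a higher GC content than members that rose. Structure was taken from the transcript with the longest coding sequence of each gene. The median of the mean intron length was 798 bases in the 15 lower members and 2558 bases in the 22 higher members, and over all protein-coding genes it was 1764 and 4144 bases. The median GC content was 52.2% and 46.0% in the members and 56.5% and 46.7% over all protein-coding genes. Across 52 members with introns Spearman's rho between log2 fold change and mean intron length was 0.28, and across 13761 protein-coding genes it was 0.35. With GC content rho was -0.25 across 54 members and -0.36 across 14145 genes. EIF3G, at a mean intron of 378 bases and a GC content of 60.3%, lay at the short and GC-rich end, but EIF5, at 462 bases and 41.6%, and EIF4G2, at 330 bases and 43.1%, had short introns and rose. These are descriptions across genes measured in the same 6 libraries. The part of GC content or of RNA length in the counts was not tested.

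**Figure D5:**
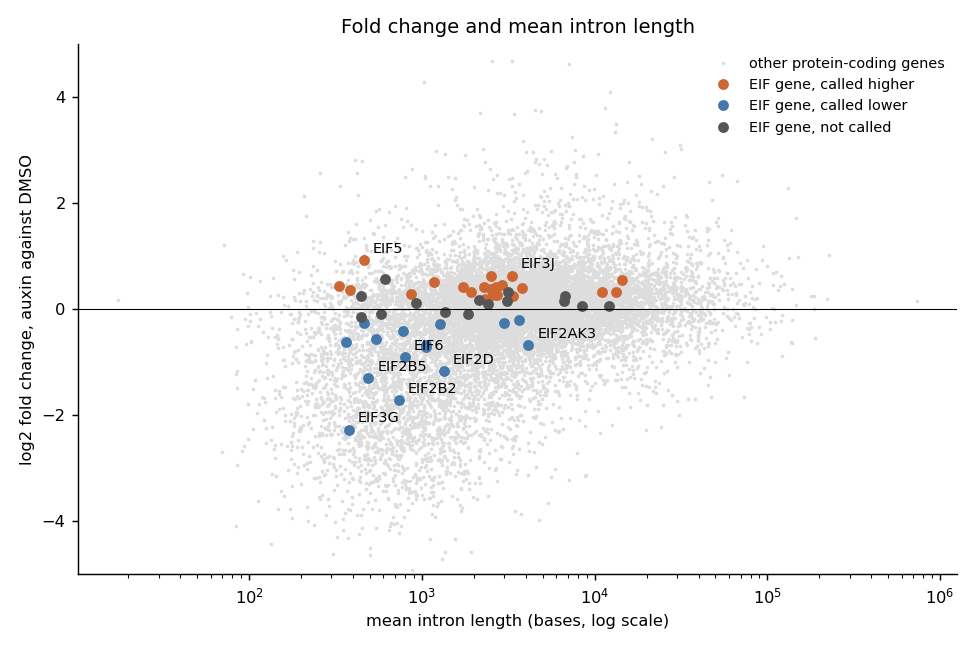
Log2 fold change after auxin, on the y axis, against the mean intron length of each gene in bases, on a log axis, for EIF genes coloured by call and other protein-coding genes in grey. Lower members such as EIF3G, EIF2B5 and EIF2B2 have mean introns of 378, 491 and 735 bases, and EIF5 is a member with short introns that rose; 3 genes beyond 5 on the y axis are not drawn.

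Of 35 partners and regulators of the initiation factors tested, 9 were higher (25.7%, against 25.4% of all genes) and 12 lower (34.3%, against 26.9%). Over protein-coding genes the shares were 27.8% and 33.4%, near those of the list. Of the falls 7 were at least 2-fold, or 20.0% of the list against 13.3% of all genes and 2271 of 14154 protein-coding genes. No rise was of that size. MKNK2, a kinase of eIF4E, was at 55.4, 60.0 and 50.9 CPM in DMSO and 7.22, 5.37 and 4.59 CPM after auxin (log2 fold change -3.27, SE 0.17, adjusted p 1.18e-05). IMPACT, an inhibitor of EIF2AK4 activation, rose from 55.7 ± 5.4 to 100.5 ± 8.5 CPM (SD over 3 libraries each; 0.85, adjusted p 0.000277). GCN1, an activator of EIF2AK4, fell from 292 ± 30 to 60.0 ± 9.0 CPM (-2.28, adjusted p 1.35e-05). PABPC4, a poly(A)-binding protein, fell from 204 ± 6 to 59.6 ± 1.3 CPM (-1.77, adjusted p 1.99e-06). DHPS, which starts the hypusine modification of eIF5A, fell from 16.6 ± 1.1 to 6.78 ± 0.16 CPM (-1.30, adjusted p 2.04e-05). These 3 were chosen after their values were seen. With the replicate block 18 partners were called higher, or 51.4% against 35.5% of all genes.

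Of 12 tested elongation and termination factors 4 were higher and 4 lower (33.3% each, against 25.4% and 26.9% of all genes), which in a list of this size is near the share of all genes. With the block 8 were higher, or 66.7% against 35.5%, and 7 were higher without auxin replicate 1. EEF1A1, which delivers tRNA during elongation, rose from 6453 ± 927 to 9741 ± 796 CPM (SD over 3 libraries each; log2 fold change 0.59, adjusted p 0.00578 and 0.17 with log2(TPM + 1)). EEF2K, the kinase that inhibits eEF2, fell from 41.4 ± 0.1 to 16.7 ± 1.7 CPM (-1.31, adjusted p 2.15e-05). Of 6 exon junction complex partners of EIF4A3, CASC3 was higher (0.52, adjusted p 0.000241) and UPF3A lower (-0.26, adjusted p 0.0458). This was 16.7% each, against 25.4% and 26.9% of all genes. The UPF3A call was lost without auxin replicate 2 (0.15), auxin replicate 3 (0.10), DMSO replicate 1 (0.11) or DMSO replicate 2 (0.10).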

How the data were processed

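RNA was sequenced from 3 auxin and 3 DMSO libraries of HCT116. Per the labels' protocols, ribosomal RNA was depleted and libraries were stranded and paired-end over 151 cycles. The submitters' processing notes name bcl2fastq 2.20, STAR, DESeq2 and GRCh38; whether counting used the strand is not given in the sources used here, and 28 tested members overlap a tested gene on the opposite strand. Per the file headers, the authors deposited expected counts with posterior SD, TPM, effective length and the percent of a gene given to each transcript. Gene IDs were matched to GENCODE release 29.

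Expected counts, rounded, entered edgeR 4.0.16 under R 4.3.3 (filterByExpr, TMM, glmQLFTest, Benjamini-Hochberg over all genes or transcripts, threshold 0.05). CPM values use TMM factors. Shares were tested with limma 3.58.1 on log2 odds with 0.5 counts added, for transcripts with a mean share of at least 5% in either group. Exon inclusion needed a mean of 5 TPM. The procedures were tested on simulated data.

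Deviations from the group mean correlated between same-numbered libraries (0.651, 0.265 and 0.276), and the replicate number was used as a block in an alternative fit. Correlations between libraries of unlike number were not computed. The deviations of a group are tied to each other, so an offset shared by replicate 1 alone could give positive values throughout. These correlations therefore do not show that numbers 2 and 3 pair. Replicate 1 of both groups stood apart on the second principal component (14.5% of variance). Alternatives were other scalings, filters, DESeq2 1.42.0, limma on log2 TPM, the block, single libraries left out and, added after the data were seen, replicates 2 and 3 only. Members and lists were chosen with earlier results of these data known. Named were EIF4A1, EIF4G1 and EIF3G, the called member with the largest rise and fall in each role, and further called members by size of change up to 25; their transcripts with a share of at least 5%; and the 6 other transcripts with the largest called share change. The sequence of 1 exon is not reported here.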

Additional observations from a re-analysis of the deposited data

How the results depend on the processing

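The number of EIF genes called higher was 22 and became 1 under both TPM fits, against 13 to 24 without single libraries; the number called lower was 15 and ranged from 11 to 14 without single libraries. Over all genes the fits on TPM gave 970 and 1017 higher and 2966 and 3223 lower, and single libraries left out gave 3876 to 4979 higher and 4493 to 5575 lower. Among initiation partners 9 higher became 16 with upper-quartile factors, 3 and 3 on TPM, 18 with the replicate block, 15 with replicates 2 and 3 only and 7 to 13 without single libraries, and 12 lower became 7 on log2(TPM + 1) and 9 to 12. Among elongation factors 4 higher became 0 and 0 on TPM, 8 with the replicate block, 8 with replicates 2 and 3 only and 3 to 7 without single libraries. Among exon junction partners 1 higher became 2 with upper-quartile factors, library size only, DESeq2, no filter and replicates 2 and 3 only, 3 with the replicate block, 0 on TPM and 1 to 2 without single libraries, and 1 lower became 0 with upper-quartile factors, no filter and on TPM, 2 with the replicate block and with replicates 2 and 3 only, and 0 to 1.

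EIF transcripts called higher, 57, became 91 with upper-quartile factors, 99 with DESeq2, 106 with the replicate block and 26 to 46 without single libraries, and those called lower, 37, became 22 to 35. Changed shares, 31, became 52 with a minimum share of 1% and 20 to 31 without single libraries. The change in log2 odds ranged from -0.0067 (without DMSO replicate 1) to 0.25 for EIF4G1-221 and from -1.18 (without DMSO replicate 3) to 2.47 for EIF4G1-229, which was also below 0 without auxin replicate 1 (-0.64). Neither was called. With CPM in place of TPM the share of EIF4A1 changed by -4.94 points, that of EIF4G1 by -5.60 and that of EIF5A by 1.88; that of EIF4E turned from 0.105 to -3.18. Paired by replicate number, the 6 shares on TPM kept their unpaired mean differences by construction. The exact sign-flip p on TPM was 0.25 for 5 of them and 0.75 for EIF4E. The causes were not tested. With the block, 31 EIF genes were higher and 18 lower. Of the 17 members that had not passed, 12 were then called, and no called member lost its call. Over all genes calls grew with the block too, from 25.4% to 35.5% higher and from 26.9% to 34.4% lower. Of the 24 named members with a call, 14 lost it under both TPM fits and 4 without at least 1 library. Depth limits EIF2S3B, at 66.3 to 164 counts, and EIF4EBP3, at no more than 28.99.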

Other observations

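Besides the members, 76 genes outside chromosome Y carry an EIF symbol, and 17 of them, mostly processed pseudogenes, passed the filter on low counts. None was called higher in edgeR (1 had an unadjusted p under 0.05, and DESeq2 called 0), against 25.4% of all genes. Apart from EIF3J-DT and ANKHD1-EIF4EBP3 their group means were at most 1.17 CPM, where a change is hard to detect. Only ANKHD1-EIF4EBP3 was called lower, against 26.9% of all genes. It was at 91.5 ± 4.3 CPM under DMSO and 77.8 ± 1.5 CPM under auxin (SD over 3 libraries each, log2 fold change -0.23, adjusted p 0.00974). It overlaps EIF4EBP3 on the same strand, and reads in their common part cannot be told apart.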
